A study of Mus musculus with 6 samples.

Results

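The serum amyloid A genes Saa1, Saa2 and Saa3 were followed in mouse cartilage cells given vesicles from macrophages. They are 3 of the 55487 genes in the files and were found by their symbols. They had been picked because their levels differed between the vesicle groups in these same libraries, so their group difference is described here and not tested. All 6 libraries came from knee cartilage chondrocytes of C57B/6 mice, the cells that make cartilage matrix, and were sequenced as stranded mRNA libraries. For 24 h the cells had received extracellular vesicles, membrane particles shed by cells, at a vesicle protein concentration of 10 µg/ml. The vesicles came from unstimulated macrophages in the 3 libraries called M-EV and from LPS-stimulated macrophages in the 3 called M-LPS-EV. LPS is lipopolysaccharide, the endotoxin of bacterial outer membranes. The labels name neither the source nor the kind of these macrophages. Both groups thus received vesicles, and cells without vesicles were not analysed here. Whether replicates came from separate cultures or animals is not given in the sources, and the spread between them may be technical. The libraries held 20239626 to 25712667 expected counts.

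Serum amyloid A (SAA) proteins are small secreted apolipoproteins of the acute-phase response. In mice, Saa1 and Saa2 are best known from the liver, where interleukin-6, interleukin-1 and tumour necrosis factor switch them on and from where the proteins circulate on high-density lipoprotein. Saa3 is the form made mainly outside the liver, for example by macrophages and fat cells. Saa4 is the constitutive family member. NF-kB and C/EBP transcription factors are the classical activators of SAA promoters. Secreted SAA can signal through formyl peptide and Toll-like receptors, and its fragments form the fibrils of AA amyloidosis.

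The genes lie together on chromosome 7 of mm10, in a stretch of 42.3 kb from 46711998 to 46754313. Saa3 (ENSMUSG00000040026) spans 46711998 to 46715700, Saa4 (ENSMUSG00000040017) 46727998 to 46732603 and Saa1 (ENSMUSG00000074115) 46740497 to 46742980, all on the minus strand. Saa2 (ENSMUSG00000057465) spans 46751790 to 46754313 on the plus strand, so Saa1 and Saa2 face away from each other. RefSeq lists Saa1 and Saa2 each as a synonym of the other, and the identifiers given here fix which is meant. The sequences upstream of the 3 members are shown because all 3 were higher in the same libraries while their levels differed widely. Each runs over 200 bases, from -250 to -51 counted from the gene's RefSeq start (GRCm38.p6, the mm10 assembly), read 5′ to 3′ on the gene's strand. Capitals mark matches to TTGCNNAA, the core letters of a C/EBP site, or to a loosened NF-kB consensus, searched on both strands. The loosened form allows A as well as G at base 3. The letters were chosen with these promoters in view.
Saa3, chr7:46715727-46715926, minus strand: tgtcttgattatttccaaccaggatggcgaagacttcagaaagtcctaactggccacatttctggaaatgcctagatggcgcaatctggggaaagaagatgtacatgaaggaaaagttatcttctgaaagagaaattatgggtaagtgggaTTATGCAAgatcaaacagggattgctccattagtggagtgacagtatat
Saa1, chr7:46743031-46743230, minus strand: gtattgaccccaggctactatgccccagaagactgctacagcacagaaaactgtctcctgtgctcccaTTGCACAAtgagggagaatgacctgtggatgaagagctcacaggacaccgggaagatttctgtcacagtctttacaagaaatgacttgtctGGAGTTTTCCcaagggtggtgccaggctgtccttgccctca
Saa2, chr7:46751583-46751782, plus strand: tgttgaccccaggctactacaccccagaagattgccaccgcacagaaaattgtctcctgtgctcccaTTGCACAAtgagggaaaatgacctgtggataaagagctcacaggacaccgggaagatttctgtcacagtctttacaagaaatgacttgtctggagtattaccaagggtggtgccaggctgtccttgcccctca

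The Saa1 and Saa2 promoters are near copies. Over the 300 bases searched, from -250 to 50 bases after the start, 287 of 301 aligned columns were identical (95.3%), against 54.2% for Saa1 and Saa3 and 54.0% for Saa2 and Saa3. The C/EBP letters were found once in each member, from -99 to -92 in Saa3, from -182 to -175 in Saa1 and from -183 to -176 in Saa2, counted from the start. Of 32851 RefSeq promoter windows of this length, 10.8% hold these letters. The loosened NF-kB letters were found in Saa1, from -91 to -82, as GGAGTTTTCC. This match has A at base 3, which the stricter consensus with G there does not allow. The loosened letters were not in the Saa2 or Saa3 window. They occur in 11.2% of all windows. The letters TATANA were found in Saa3, where overlapping matches run from -55 to -46, and in 24.7% of all windows, and TTCNNNGAA, a STAT site, in none of the 3 members and 8.3% of all windows. These matches and misses describe letters in a window and do not show binding. The RefSeq starts of Saa3 and Saa2 lie inside the gene spans given above, so positions counted from the outer ends of those spans would differ.

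Saa3 went from a low level with M-EV to one of the more abundant transcripts with M-LPS-EV. It had 38, 28 and 31 counts in M-EV replicates 1 to 3 and 6952, 7686 and 6029 in M-LPS-EV replicates 1 to 3. As CPM, counts scaled to 1 common total with TMM library sizes, these were 1.49, 1.27 and 1.37 against 326, 325 and 295. The groups stood far apart, and every M-LPS-EV library was high. In bulk libraries, a change in the number of cells that make a transcript and a change in the amount per cell cannot be told apart. The means were 1.38 ± 0.111 and 315 ± 17.4 CPM (SD, n = 3 per group), a ratio of 229. The 9 ratios of a single M-LPS-EV to a single M-EV library ran from 198 to 257. Per transcript length the level was 7.25, 6.29 and 6.81 TPM (scaled by effective transcript length and library total) with M-EV and 1591, 1556 and 1434 TPM with M-LPS-EV. Ranked by TPM in its own library, Saa3 stood between places 9282 and 9611 with M-EV and between places 106 and 123 with M-LPS-EV. Its spread within M-LPS-EV, a coefficient of variation of 5.53%, was wider than that of 97.5% of the 775 genes with a mean CPM within a factor of 2 of its own, whose median was 2.00%. The lowest of the 3 libraries was replicate 3.

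Saa1 was not detected with M-EV and low with M-LPS-EV. It had 0 counts in each M-EV library and 35, 40 and 34 in M-LPS-EV replicates 1 to 3, with exact Poisson 95% intervals of 24.4 to 48.7, 28.6 to 54.5 and 23.6 to 47.5. The M-LPS-EV libraries lay close together at 7.03, 6.98 and 6.93 TPM. A count of 0 over the M-EV group allows up to 3 counts, and against that floor the observed Saa1 level with M-LPS-EV was 38.9-fold higher in CPM. This bound leaves out the counting error of the M-LPS-EV counts. Intervals and floors here cover counting error only.

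Saa2 showed the same absence with M-EV and a similar low level with M-LPS-EV. It had 0 counts in each M-EV library and 41, 45 and 56 in M-LPS-EV replicates 1 to 3, or 7.37, 7.23 and 9.96 TPM. Replicate 3, the lowest for Saa3, was the highest for Saa2. Against the floor of 3 counts over the M-EV group, the observed Saa2 level was 50.7-fold higher in CPM, a bound of the same kind. In all 3 members each M-LPS-EV library lay above each M-EV library, which was so for 21.5% of the 14604 tested genes. Nothing is read from that count, since the members were picked on this contrast. Saa1 and Saa2 passed the filter on low counts through their M-LPS-EV libraries alone.

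**Figure D1:**
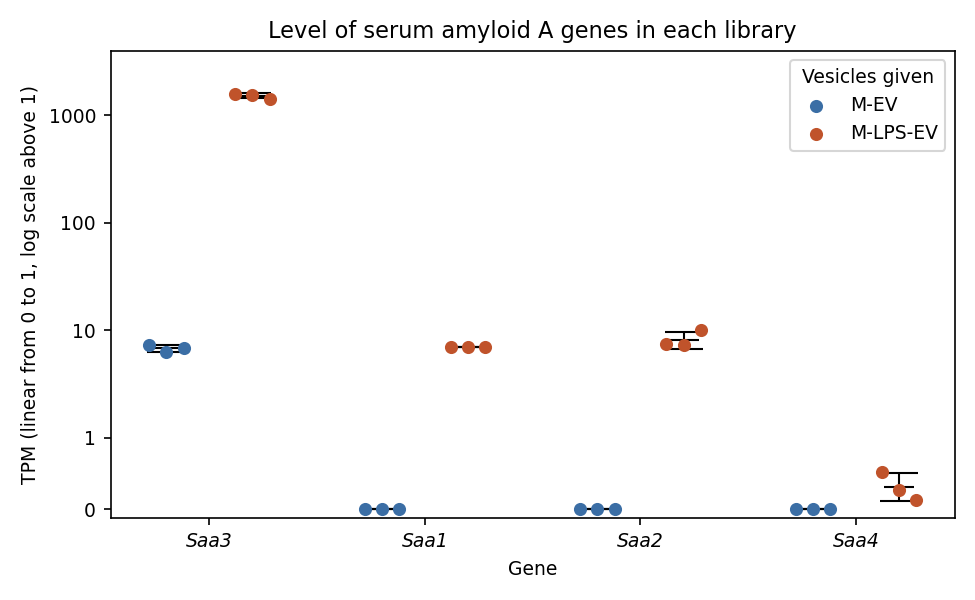
Level of Saa3, Saa1, Saa2 and Saa4 in TPM (linear from 0 to 1, log scale above 1) in each library; points are libraries in replicate order, bars are mean and SD over 3 libraries. Saa3 lies between 6.29 and 7.25 TPM with M-EV and between 1434 and 1591 TPM with M-LPS-EV, while the other genes are at 0 with M-EV and at or under 9.96 TPM with M-LPS-EV.

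Nearly all SAA transcripts with M-LPS-EV came from Saa3. It held 99.1%, 99.1% and 98.8% of the summed TPM of the members in replicates 1 to 3, a mean of 99.0% ± 0.150. Saa1 held 0.453% ± 0.0213 and Saa2 0.535% ± 0.131. The mean TPM of Saa3 was 219 times that of Saa1 and 186 times that of Saa2 (n = 3). The level that Saa1 reached with M-LPS-EV, 6.98 ± 0.050 TPM, was near the level of Saa3 with M-EV, 6.78 ± 0.481 TPM. Saa1 and Saa2 lay close to each other. Saa2 took 53.9%, 52.9% and 62.2% of their joint counts, with exact 95% binomial intervals of 42.1 to 65.5%, 41.8 to 63.9% and 51.4 to 72.2%, so an even split lay outside the interval of replicate 3 alone. In TPM, which corrects for length, the Saa2 level was 1.05, 1.04 and 1.44 times that of Saa1.

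Saa4, which the selection left out, had 0 counts in each M-EV library and 12, 7 and 3 in M-LPS-EV replicates 1 to 3. At 0.52, 0.27 and 0.13 TPM it was lower than each of the other family members with M-LPS-EV. This is 7.86-fold higher in CPM than the floor of 3 counts over the M-EV group, leaving out the counting error of these few counts. Its count was too low for the test. The pseudogene Saa-ps, between Saa4 and Saa1, had 0 counts in all 6 libraries.

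The split of reads between members was checked on their sequences. The main transcripts Saa1-201 (609 bases) and Saa2-201 (606 bases) were identical at 572 of 609 aligned columns, or 93.9%. Saa3-201 (555 bases) was 64.3% identical to Saa1-201 and 63.3% to Saa2-201. Of all 50-base windows of Saa1-201, 14.8% also occur in a transcript of another gene, Saa2 or Saa3, and of Saa2-201 13.3%, all in Saa1. For Saa3-201 it was 1.78%, all in Saa1. No window of 100 bases of these transcripts occurs in another gene of the annotation. The read length is not given in the sources used here, and the effective lengths in the files imply a mean fragment of 199 to 205 bases. The counts of Saa1, Saa2 and Saa3 lay within 0.01 of a whole number in all 6 libraries once their transcripts were summed. Fractions of reads were thus not shared out between these genes, as they were between transcripts of 1 gene.

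Transcript use was simple in Saa3 and Saa1. The 4-exon protein-coding Saa1-201 held 100%, 97.4% and 97.0% of the Saa1 counts with M-LPS-EV, and the retained-intron form Saa1-202 had at most 1.04 counts. Saa3-201 held 98.5%, 98.3% and 98.4% of the Saa3 counts in the M-LPS-EV libraries. It also held 97.3%, 100% and 100% in the M-EV libraries, where the small counts give exact binomial lower limits of 86.2 to 88.8%. The longer Saa3-202 (2200 bases) had 106, 127 and 98.3 counts with M-LPS-EV and 1.01, 0 and 0 with M-EV. Per length it made up 0.27 to 0.30% of Saa3 with M-LPS-EV, the IsoPct of the files. Saa3-203 was at 0 in every library.

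Saa2 counts were split between forms, and the estimated split differed between M-LPS-EV libraries. Saa2-201 held 63.1%, 45.3% and 24.9% of the counts in replicates 1 to 3, with exact binomial 95% intervals of 46.9 to 77.9%, 29.6 to 60.0% and 14.4 to 38.4%. Saa2-203, which starts 43 bases further upstream, held 26.6%, 47.7% and 64.1%, with intervals of 14.2 to 42.9%, 31.7 to 62.1% and 50.4 to 76.6%. The intervals of replicates 1 and 3 did not overlap for either form, but they treat every count as assigned to its form without error. By these estimates the larger Saa2 count of replicate 3 lay in Saa2-203. All 606 bases of Saa2-201 are also in Saa2-203, which has 652, so few bases tell them apart. The uncertainty of the estimated split is not part of these intervals, so they cannot show whether use of the forms differed between libraries. Saa2-204, a retained-intron form, had 4.22, 3.13 and 6.16 counts and Saa2-202 had 0. With M-EV no form of Saa2 had a count.

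**Figure D2:**
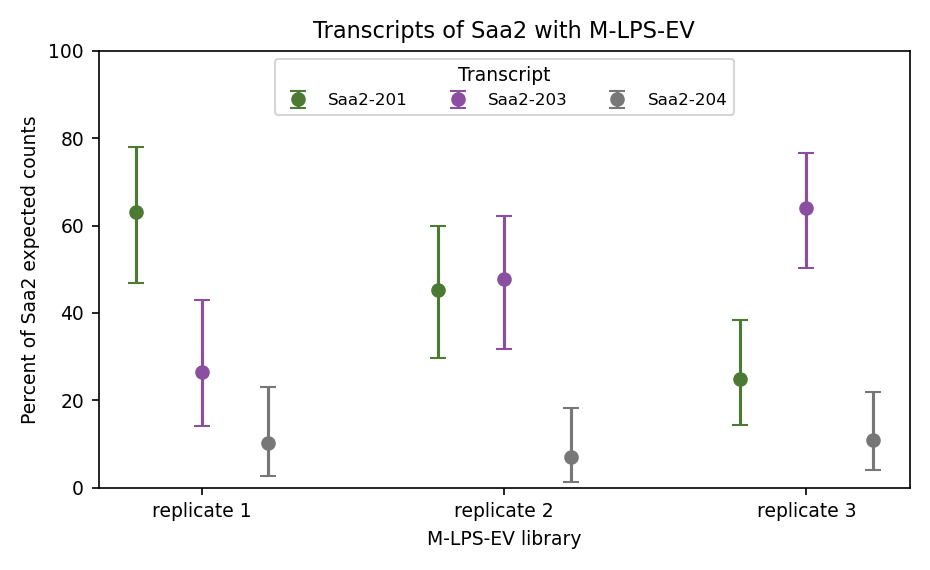
Percent of the Saa2 expected counts given to each transcript in the 3 M-LPS-EV libraries. Points are estimates and bars exact binomial 95% intervals. The bars cover counting error only and not the uncertainty of the estimated split. Saa2-201 is at 63.1% in replicate 1 and 24.9% in replicate 3, and Saa2-203 at 26.6% and 64.1%.

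The genes beside the cluster were read from the test over all genes (edgeR's quasi-likelihood test, Benjamini-Hochberg adjusted over 14604 genes, called at an adjusted p under 0.05). It called 31.6% of all tested genes, 16.4% higher and 15.2% lower with M-LPS-EV, with a median log2 fold change of 0.003. Of the 5 nearest protein-coding genes on each side, 7 could be tested, and 2 were called higher and 1 lower. Their median log2 fold change of M-LPS-EV over M-EV was 0.05. Saal1, which is 1.3 kb from Saa3 and despite its name encodes no serum amyloid A, had 13.6 ± 0.703 and 16.5 ± 1.57 CPM (a log2 fold change of 0.28 with SE 0.08, edgeR adjusted p = 0.0054). Hps5, a lysosome-related organelle gene 6.2 kb from Saa2, had 35.4 ± 1.74 and 36.9 ± 0.956 CPM (log2 fold change 0.06) and did not pass (edgeR adjusted p = 0.38). Ldha, the lactate dehydrogenase gene 87.2 kb away, rose from 1234 ± 27.1 to 1926 ± 38.0 CPM (a log2 fold change of 0.64 with SE 0.02, edgeR adjusted p = 2.5e-19). Tsg101, a vesicle-sorting gene, fell by 0.17 in log2 fold change (with SE 0.04, edgeR adjusted p = 0.0011). The calls of Saal1 and Tsg101 ended with effective lengths as an offset (edgeR adjusted p = 0.069 and 0.06) and in limma-trend on log2(TPM + 1) (adjusted p = 0.14 and 0.059). Sergef, Gtf2h1 and Myod1 were not called, with log2 fold changes of 0.05, -0.08 and 0.05. Kcnc1, Tph1 and Ldhc had too few counts.

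**Figure D3:**
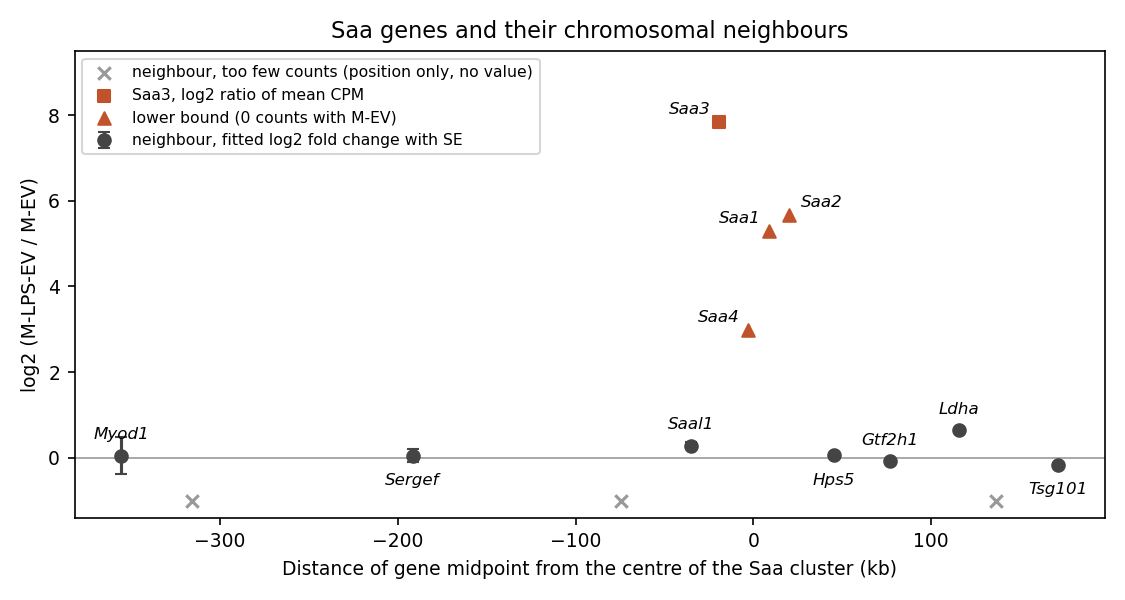
The log2 ratio of M-LPS-EV to M-EV against the distance of each gene's midpoint from the centre of the Saa cluster in kb. Neighbours show the fitted value with its SE, and Saa3 the ratio of mean CPM. Triangles, labelled lower bound, are ratios to a floor of 3 counts, without the counting error of the M-LPS-EV counts. Crosses mark neighbours with too few counts, with no value. The tested neighbours lie between -0.17 and 0.64, and Saa3 at 7.84.

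Signals linked to the control of SAA genes formed a list of 34 cytokines, receptors, adaptors and transcription factors, not all of them activators. It also holds Socs3, a feedback inhibitor of interleukin-6 signalling. Of 28 tested, 22 were higher and 1 lower with M-LPS-EV, beside 16.4% higher and 15.2% lower over all tested genes. The median log2 fold change was 0.40, against 0.003 over all tested genes. The 22 include Socs3, the transcription factor gene Yy1, and Il6, which passed the filter on low counts through M-LPS-EV alone. The count of 22 is thus not a count of activators. The cytokines themselves were scarce. Il6 had 1 count over the M-EV group and 80 over the M-LPS-EV group, a ratio of 85.8 (exact 95% counting interval 15 to 3430), and Tnf had 3 and 18, a ratio of 6.43 (1.88 to 34.1). Il1b had 0 and 9 counts and Il1a 8 and 28, too few for the test. Lif, an interleukin-6 family cytokine, rose from 1.75 ± 0.217 to 4.0 ± 1.02 CPM (a log2 fold change of 1.19 with SE 0.20, edgeR adjusted p = 3.1e-05).

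Receptors of these cytokines were present in both groups. Il6st, the signal-transducing receptor chain shared by the interleukin-6 family, rose from 309.9 ± 3.42 to 600.5 ± 13.7 CPM (a log2 fold change of 0.95 with SE 0.02, edgeR adjusted p = 9.1e-22). Osmr, the oncostatin M receptor, rose by 0.54 (SE 0.03) and Il1r1, the interleukin-1 receptor, by 0.68 (SE 0.04) on the log2 scale. Il6ra, the interleukin-6 binding chain, stood at 15.4 ± 0.998 and 14.9 ± 0.686 CPM and was not called (a log2 fold change of -0.05 with SE 0.07, edgeR adjusted p = 0.69).

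Among the transcription factors, Cebpd, Cebpb, Nfkbiz and Relb rose and Cebpa was not called. Cebpd, a C/EBP family gene, rose from 19.2 ± 0.793 to 126.9 ± 7.49 CPM (a log2 fold change of 2.72 with SE 0.05, edgeR adjusted p = 4.2e-24). Cebpb rose by 1.30 (SE 0.05), while Cebpa, the liver-enriched form, stood at 4.40 ± 0.404 and 4.56 ± 0.0386 CPM and was not called (edgeR adjusted p = 0.84). Nfkbiz, an inducible NF-kB cofactor, rose from 8.40 ± 0.459 to 68.1 ± 2.45 CPM (a log2 fold change of 3.02 with SE 0.05). The NF-kB subunit Relb rose by 1.46 (SE 0.06) and Rela, the main activating subunit, by 0.15 (SE 0.04). Rela lost its call in limma-trend on log2(TPM + 1) (adjusted p = 0.17), in DESeq2 (adjusted p = 0.067) and under the length offset (edgeR adjusted p = 0.15). Stat3, the transducer of interleukin-6 signals, rose by 0.10 (SE 0.03, edgeR adjusted p = 0.0073), a call lost without M-EV replicate 2 (edgeR adjusted p = 0.057) and in limma-trend on log2(TPM + 1) (adjusted p = 0.093). On that scale the calls of Il1rap, Yy1 and Tlr4 ended too (limma adjusted p = 0.19, 0.28 and 0.29). Il1rap and Yy1 also lost theirs under the length offset (edgeR adjusted p = 0.12 and 0.15). Il1rap was not called in DESeq2 either (adjusted p = 0.091), nor with some libraries left out, such as M-EV replicate 2 (edgeR adjusted p = 0.085). The glucocorticoid receptor gene Nr3c1 was the 1 member called lower (log2 fold change -0.17 with SE 0.03).

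Of 12 genes for reported SAA receptors, 9 were tested, 3 were higher and 1 lower, with a median log2 fold change of 0.23. Over all tested genes 16.4% were higher and 15.2% lower, and with 9 genes nothing is read from the difference. Tlr2, a lipoprotein-sensing receptor, rose from 9.62 ± 0.538 to 33.1 ± 3.13 CPM (a log2 fold change of 1.78 with SE 0.07, edgeR adjusted p = 2.7e-16). Tlr1 and Tlr6 encode its co-receptors. Tlr1 stood at 0.579 ± 0.111 and 0.674 ± 0.297 CPM and was not called (edgeR adjusted p = 0.69). Tlr6 fell by 0.53 in log2 fold change (SE 0.16, edgeR adjusted p = 0.014), but not past the threshold without M-EV replicate 2 (edgeR adjusted p = 0.059) or M-LPS-EV replicate 3 (edgeR adjusted p = 0.069). Scarb1, the high-density lipoprotein receptor, rose by 0.41 (SE 0.04), and Tlr4, the LPS receptor, by 0.46 (SE 0.07) without keeping its call under the length offset (edgeR adjusted p = 0.19). Fpr2, the formyl peptide receptor best known to bind SAA, had 0 and 4 counts, and Fpr1 had 1 and 11. Ager, Cd36, P2rx7 and Scarb2 were not called. Ager was called higher in limma-trend on log2(TPM + 1) (adjusted p = 0.045), and Cd36 lower without M-LPS-EV replicate 2 (edgeR adjusted p = 0.022).

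Genes of lipid handling and turnover around SAA were tested for 12 of 17 members, with 7 higher, none lower and a median log2 fold change of 0.22. Over all tested genes 16.4% were higher and 15.2% lower. Of the protease genes, Mmp2, Mmp3, Mmp9, Ctsb and Ctsl rose. Ctsd, cathepsin D, stood at 941.4 ± 9.5 and 912.9 ± 20.4 CPM and was not called (edgeR adjusted p = 0.083), but was called lower with upper-quartile scaling, with no count filter and without M-LPS-EV replicate 2 (edgeR adjusted p = 0.023, 0.04 and 0.022). Mmp1a was at 0. The largest change in the list was that of Mmp3, from 3.27 ± 0.320 to 235 ± 22.4 CPM (a log2 fold change of 6.18 with SE 0.08, edgeR adjusted p = 2.0e-27). Mmp2 rose by 0.41 (SE 0.03), and the cathepsin genes Ctsb and Ctsl by 0.34 (SE 0.02) and 0.21 (SE 0.03). Hspg2, which encodes the heparan sulfate proteoglycan perlecan of amyloid deposits, rose from 2993 ± 53.5 to 3492 ± 149 CPM. Abca1, a cholesterol exporter, rose by 0.49 (SE 0.07), a call that limma-trend on log2(TPM + 1) did not make (adjusted p = 0.11). Apoa1, the main protein of the lipoprotein that carries SAA, had 1 and 3 counts. The amyloid P component gene Apcs had 0 in all libraries.

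Of 28 positive acute-phase genes, all 14 that could be tested were higher, with a median log2 fold change of 1.69, beside 16.4% higher over all tested genes. Lbp, which encodes the LPS-binding protein, rose from 4.45 ± 0.483 to 166.9 ± 8.42 CPM (a log2 fold change of 5.22 with SE 0.06, edgeR adjusted p = 4.0e-28). Lcn2, an iron-siderophore binding protein, rose from 48.3 ± 1.88 to 1171 ± 42.5 CPM. Steap4, a metalloreductase, rose by 6.94 (SE 0.07) and Hp, haptoglobin, by 6.33 (SE 0.08). The smallest change was that of A2m, a protease inhibitor, with 0.34 (SE 0.04). The other 14 members had too few counts. Among them were liver genes such as Fga, Serpina1a, Orm2 and Apcs, each at 0 in all 6 libraries, and Crp with 1 count in all. Of 8 genes that the liver lowers in an acute phase, 2 could be tested and both were higher: Trf, transferrin, rose from 6.51 ± 0.297 to 20.8 ± 0.592 CPM and Rbp4, a retinol carrier, from 94.2 ± 2.21 to 111.8 ± 3.24 CPM. Members near 0 with M-EV reached the test through their M-LPS-EV counts and then had to be higher, which can lift these counts and medians. These lists, like the others, were chosen with earlier results of these data known, so the counts called are a description only.

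**Figure D4:**
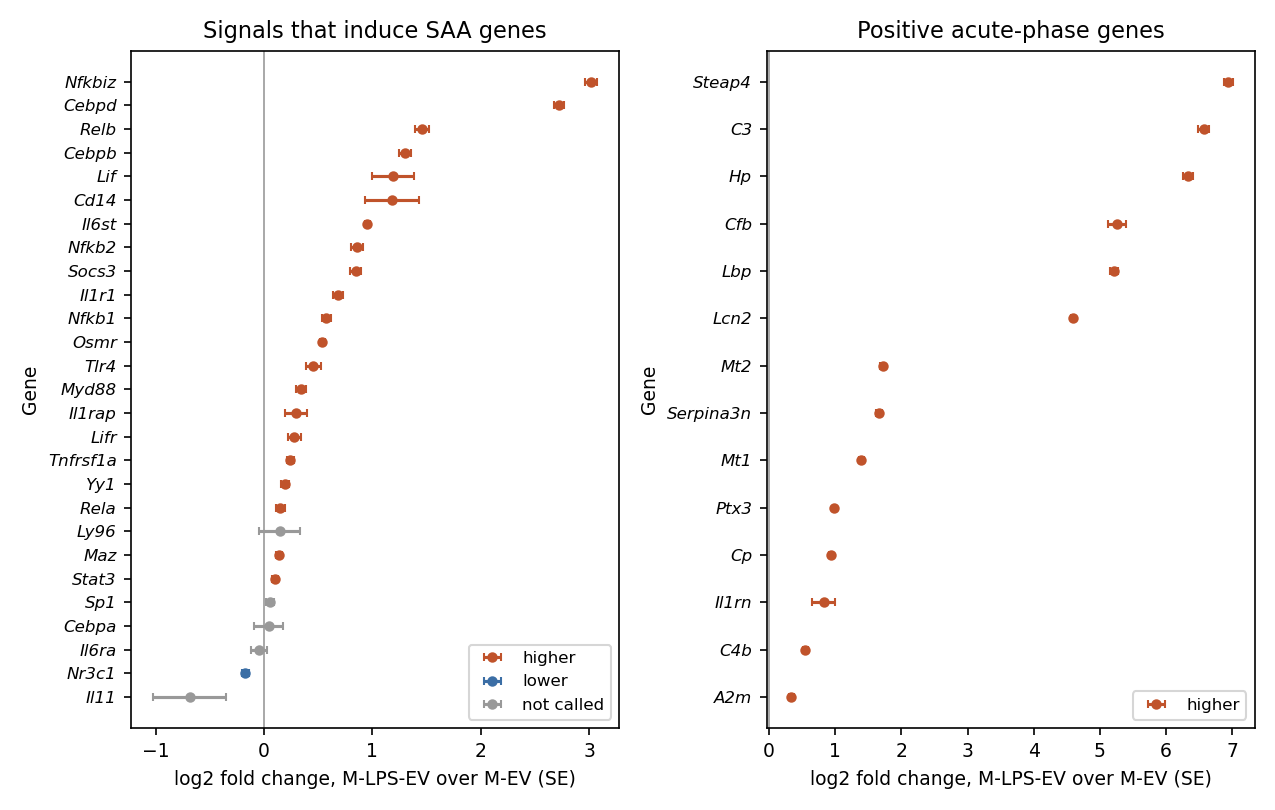
Fitted log2 fold changes between the groups (M-LPS-EV over M-EV, with SE), coloured by call. The left panel holds the tested signals linked to SAA genes, not all of them activators, and the right panel the tested positive acute-phase genes. Il6 is left out because its M-EV group held 1 count. The signals run from -0.69 (Il11, not called) to 3.02 (Nfkbiz) and the acute-phase genes from 0.34 (A2m) to 6.94 (Steap4).

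The patterns nearest to that of Saa3 over the 6 libraries were found by the distance between centred log2(CPM + 0.5) profiles among the 12976 genes that averaged 1 CPM or more. They were Steap4 (distance 1.06), the complement gene C3 (1.71), Mmp3 (1.77), Hp (1.81) and the neutrophil attractant Cxcl1 (2.00). In CPM, C3 went from 1.06 ± 0.170 to 100.6 ± 6.33 and Cxcl1 from 1.41 ± 0.146 to 103.5 ± 2.94. For Saa2, whose profile is compressed by the added 0.5, they were Cebpd (0.43), Ier3 (0.46), Fas (0.47), Nfkbia (0.47) and Icam1 (0.49). Saa1 was under the level needed. With libraries in 2 groups, this measure mostly ranks genes by the size of the group difference, and it is given as a description.

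The labelled cell type was checked on its markers, and the part of other cells in the SAA levels was not tested. All 10 chondrocyte markers were present, 9 of them lower with M-LPS-EV beside 15.2% of all tested genes, with Col2a1, the main cartilage collagen, at 86150 ± 650.4 and 76340 ± 999.8 CPM. Macrophages, hepatocytes and adipocytes are among the known sources of SAA, which are not all covered here. The 15 macrophage markers summed to 45.9 to 49.7 CPM in the M-EV libraries and 47.2 to 53.0 CPM in the M-LPS-EV libraries. Most of that sum came from Mertk, at 22.04 ± 2.54 and 16.3 ± 0.672 CPM, and Lyz2, at 15.5 ± 0.823 and 22.2 ± 2.06 CPM, which moved in opposite directions. Of 8 tested, 3 were higher (Adgre1, Lyz2, Itgam) and 1 lower (Mertk), where 31.6% of all tested genes were called, and none of the 15 was at 0 in all libraries. Ptprc, the pan-leukocyte marker, had 23 and 20 counts over the groups, and C1qa had 37 and 2. RNA made by the cells and any RNA brought in by the vesicles cannot be told apart. The 6 hepatocyte markers summed to 0.133 to 0.157 CPM with M-EV and 0.0469 to 0.196 CPM with M-LPS-EV, with Ttr, Serpina1a and Cyp2e1 at 0. The 6 adipocyte markers summed to 1.46 to 1.88 and 2.44 to 3.13 CPM, almost all of it Fabp4, with Lep and Cidec at 0. The 10 fibroblast markers were all present and summed to 2089 to 2105 and 2172 to 2224 CPM. Of 10 tested, 4 were higher and 3 lower, beside 16.4% higher and 15.2% lower over all tested genes. Neutrophil markers summed to 0.196 to 0.272 and 0.892 to 1.27 CPM, with Camp, an antimicrobial peptide gene, at 1 and 48 counts over the groups and Ly6g and Elane at 0. Endothelial markers summed to 1.37 to 2.00 and 1.47 to 2.28 CPM.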

How the data were processed

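Per the submitters' processing notes, the authors used STAR, RSEM and DESeq2 with mm10; their versions and the annotation are not named there. The authors deposited, per transcript and library, an expected count (estimated by RSEM), a TPM and IsoPct, the percent of a gene's abundance that is this transcript, as the file headers name them; the deposited lengths and effective lengths, given in other columns, are in bases. The tables hold 142699 transcripts of 55487 genes, and 99.07% of the transcripts are in GENCODE M21 (GRCm38), from which symbols and 1-based coordinates were taken. Libraries held 20239626 to 25712667 expected counts.

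Expected counts were summed per gene and rounded. Genes were filtered with filterByExpr (minimum count 10, minimum total 15), which left 14604, scaled by TMM and tested with edgeR 4.0.16 (glmQLFit, glmQLFTest, R 4.3.3), two-sided, with group as the only term. SD are over 3 libraries. SE belong to fitted log2 fold changes and were worked back from the test, as the absolute log2 fold change over the square root of its F statistic. For large changes from few M-EV counts, as in Steap4 and Hp, such an SE can be smaller than counting error. A group at 0 counts was set at a floor of 3 counts over the group. On simulated counts for this comparison (14535 genes in the step) the test made 38 calls among 50 genes given a log2 change of 0.5, 49 of 50 at 1, 50 of 50 at 2 and at 4, and 10 among 14335 unchanged genes. The simulation gave every gene the same spread beyond counting error. It changed only a small part of the genes, picked among those above a set mean count, so these figures need not hold for the real libraries. Between libraries of 1 group the chi-square per degree of freedom was 1.69 to 2.78, so none repeats another.

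The members and lists were chosen with earlier results of these data known. Named genes were the members, other Saa genes, the 5 nearest neighbours on each side, the up to 6 genes of each list with the smallest p and those a statement turns on, and the 5 nearest patterns; the text gives fewer. Other list members and markers were named after their values were seen. Alternatives were RLE and upper-quartile scaling, no filter, a mean count of at least 50, DESeq2 1.42.0, limma-voom and limma-trend (limma 3.58.1) on log2(TPM + 1) and log2(TPM + 0.1), the replicate number as a block, offsets from effective lengths, and each library left out; for the members also plain library totals and unrounded counts. Promoters are from RefSeq, where all 3 members matched. Alignments used Biopython 1.88 and figures matplotlib 3.10.9.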

Additional observations from a re-analysis of the deposited data

How the results depend on the processing

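The ratio of Saa3 kept its size under all 11 alternatives (log2 7.78 to 7.90 with a library left out). The bounds of Saa1 and Saa2, 5.28 and 5.67 on the log2 scale, moved by construction when an M-EV library was left out, since the floor then stands over fewer libraries, with ranges over all left-out libraries of 4.63 to 5.29 and 5.01 to 5.76; with plain library totals that of Saa1 was 5.31, and a ratio of TPM gave no value, since M-EV stood at 0. By expected counts in place of TPM, the shares were 0.523% for Saa1, 0.693% for Saa2 and 98.785% for Saa3. Of all genes, 4614 were called, and 3978 to 4317 with a library left out. DESeq2 called 3465, limma-trend 2622 on log2(TPM + 1) and 2619 on log2(TPM + 0.1), and edgeR with effective length offsets 2868. Of the cluster's neighbours 3 were called, against 1 (Ldha) on both TPM scales and with the length offset. Without a count filter Saa4 was tested and called higher (1 called gene against 0, edgeR adjusted p = 9.3e-05); under the other alternatives it was not tested. The counts called in the other 5 lists stayed within 1.5 times under all 16 alternatives. With the replicate block, 4519 genes were called. Same-numbered libraries did not deviate together (r = -0.043, -0.072 and 0.027), so no pairing by number was seen. A weak shared effect could be hidden by counting noise in this check. Depth limits Saa1, Saa2 and Saa4, with 34 to 56 counts or fewer per library.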
